A study of Mus musculus with 2 samples.

Results

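The genes of cholesterol and fatty acid synthesis were followed in 63.3 cells, a mouse acute myeloid leukemia (AML) line, over 48 h of brequinar and over 48 h of beta-estradiol withdrawal. The members were chosen by name: 18 enzymes of cholesterol synthesis, 8 genes of fatty acid synthesis, and 4 genes that control sterol synthesis or carry sterol, together 30 of the 54736 gene names and IDs in the deposited matrix. The tested cultures received 2 µM brequinar, an inhibitor of the pyrimidine synthesis enzyme dihydroorotate dehydrogenase, for 6, 12, 24 or 48 h, or were washed and kept without beta-estradiol for the same times. Each arm had its own 0 h culture. The growth medium of the line held dialyzed serum, stem cell factor from conditioned medium, and 0.5 µM beta-estradiol, and the labels name its absence for the withdrawn cultures alone. How the line was made, and whether the brequinar 0 h culture received solvent, is not given in the sources used here. No untreated culture stood at 6, 12, 24 or 48 h, so an effect of the treatment and an effect of time in culture or of washing cannot be told apart.

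Cholesterol is built from acetyl-CoA. Enzymes of the mevalonate pathway make isoprenoid units, which are joined to squalene, closed to lanosterol and trimmed in many steps to cholesterol. Transcription factors of the SREBP family, encoded by Srebf2 and Srebf1, turn these genes on when sterol in the endoplasmic reticulum is low, and INSIG proteins hold them back when sterol is plentiful. SREBP factors also act on the genes of fatty acid synthesis, in which cytosolic acetyl-CoA is carboxylated, extended to palmitate, elongated and desaturated. Dividing cells, leukemic blasts among them, need both products for their membranes.

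The cultures were barcoded with lipid-anchored DNA (MULTI-seq), pooled, and profiled as single cells with 10x Genomics v3 chemistry. The 12540 cells with a single barcode call numbered 528 to 1536 per culture, and their spliced unique molecular identifiers (UMIs) summed to 5236694 to 19931921 per culture. Median UMIs per cell ranged from 6509 at 48 h of withdrawal to 15229 in the withdrawal 0 h culture. Levels are counts per 1000000 UMIs (CPM) summed over the cells of a culture, so fewer cells that express a gene and less of its RNA per cell cannot be told apart in them. Each condition was 1 culture, so no difference below has a replicate check and no test was run. Intervals are exact 95% intervals that cover counting error only. Of 10 progenitor markers of the myeloid line, 8 to 10 reached 20 CPM in each culture, whereas all 7 erythroid markers stayed below it. A gene at 20 CPM or more in either of 2 cultures counts as measured, and a ratio of at least 1.5-fold as called higher or lower. Between the 0 h cultures none of the 21 measured members was called, and neither were nearly all other genes (0% of 5490 higher and 0.0546% lower). Of the 30 members, 24 reached 20 CPM in at least 1 culture. The other 6 stayed below it: Hsd17b7 (3.72 to 18.1 CPM), Tm7sf2 (3.17 to 9.47 CPM), Fads2 (3.39 to 8.15 CPM), Lss (0.0502 to 0.689 CPM), Mvd (0 to 0.583 CPM) and Scd1 (0 to 0.125 CPM). For comparison, 3 counts correspond to 0.151 to 0.573 CPM, depending on the culture.

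A promoter window of 250 bases before the annotated start was available from RefSeq (GRCm38.p6) for 23 members. The letters of the sterol element, ATCAC followed directly by CCCAC, with up to 1 mismatch on either strand, were found in Hmgcs1, Nsdhl and Srebf2, that is 13.0% of 23 members against 1.89% of the 27025 genes in the table. CCAAT, the box bound by the factor NF-Y, was found on either strand in 14 of the 15 sterol enzymes with a window and in Insig1, Srebf1 and Srebf2. Among the 5 fatty acid genes with a window, 1 held it, Fasn. The share over all genes was 37.5%, and over the 5506 genes with a window that reached 20 CPM in at least 1 culture 40.5%. GGGCGG was found in 14 of 15 sterol enzymes, against 65.3% of those expressed genes, and CACGTG in 4 of 23 members, against 10.8%. A letter match is a description of the window and says nothing of binding. The windows below, 5′ to 3′ on the gene's strand, show sterol enzymes with several CCAAT boxes (Idi1, Msmo1), the gene that departed from the other sterol enzymes in the withdrawal arm (Hmgcs1), the master regulator of sterol genes (Srebf2), and a fatty acid gene with the box and one without it (Fasn, Elovl6). Capitals mark the sterol element letters and CCAAT or its reverse ATTGG.
Idi1, chr13:8885356-8885605, plus strand: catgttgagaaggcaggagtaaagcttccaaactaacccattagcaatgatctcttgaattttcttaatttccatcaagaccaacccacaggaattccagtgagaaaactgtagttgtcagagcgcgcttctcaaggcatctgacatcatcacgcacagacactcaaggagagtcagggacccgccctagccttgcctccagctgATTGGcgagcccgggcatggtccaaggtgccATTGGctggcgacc
Msmo1, chr8:64733579-64733828, minus strand: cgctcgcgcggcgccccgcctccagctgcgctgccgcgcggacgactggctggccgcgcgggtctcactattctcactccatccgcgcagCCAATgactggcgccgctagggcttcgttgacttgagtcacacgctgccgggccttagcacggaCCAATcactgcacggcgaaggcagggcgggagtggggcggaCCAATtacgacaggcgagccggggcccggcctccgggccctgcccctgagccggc
Hmgcs1, chr13:119690101-119690350, plus strand: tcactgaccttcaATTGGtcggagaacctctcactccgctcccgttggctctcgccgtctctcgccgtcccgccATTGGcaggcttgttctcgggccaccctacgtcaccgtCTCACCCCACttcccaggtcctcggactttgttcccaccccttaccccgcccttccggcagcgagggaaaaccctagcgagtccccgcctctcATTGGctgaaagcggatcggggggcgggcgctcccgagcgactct
Srebf2, chr15:82147019-82147268, plus strand: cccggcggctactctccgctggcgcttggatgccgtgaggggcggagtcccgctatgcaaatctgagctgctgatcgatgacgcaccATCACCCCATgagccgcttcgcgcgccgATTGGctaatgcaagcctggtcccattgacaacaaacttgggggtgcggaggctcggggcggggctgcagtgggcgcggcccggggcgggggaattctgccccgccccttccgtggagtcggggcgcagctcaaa
Fasn, chr11:120824548-120824797, minus strand: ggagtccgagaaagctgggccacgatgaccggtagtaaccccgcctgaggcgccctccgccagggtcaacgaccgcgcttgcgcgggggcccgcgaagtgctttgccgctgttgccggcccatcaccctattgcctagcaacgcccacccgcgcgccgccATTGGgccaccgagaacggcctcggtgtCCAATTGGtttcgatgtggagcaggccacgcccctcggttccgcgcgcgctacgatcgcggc
Elovl6, chr3:129532136-129532385, plus strand: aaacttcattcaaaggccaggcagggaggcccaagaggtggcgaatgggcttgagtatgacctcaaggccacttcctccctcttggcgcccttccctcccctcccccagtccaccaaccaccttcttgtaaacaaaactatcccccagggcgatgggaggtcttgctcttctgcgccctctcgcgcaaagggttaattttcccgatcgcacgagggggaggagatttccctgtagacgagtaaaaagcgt
In Hmgcs1 the sterol element letters began 138 bases before the start, in Srebf2 163 bases before it, and in Nsdhl 206 bases before it. The bases after the start began a GENCODE transcript for Srebf2 but not for Hmgcs1 or Nsdhl, whose distances rest on the RefSeq start alone. Idi1 held CCAAT letters at 45 and 14 bases before the start, and Elovl6 held none of the 4 motifs.

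The summed level of the sterol enzymes had a 12 h peak under brequinar, and was high at 24 and 48 h of withdrawal. It was 712, 633, 1238, 805 and 862 CPM at 0, 6, 12, 24 and 48 h of brequinar, and 681, 623, 632, 1240.4 and 1189.9 CPM at the same times of withdrawal. The sum was thus highest at 12 h in the brequinar arm and had returned most of the way by 24 h, while in the withdrawal arm it stayed low through 12 h, was highest at 24 h and was still high at 48 h. Against the 0 h culture the sum was 1.74-fold higher (1.70 to 1.78) at 12 h of brequinar and 1.82-fold higher (1.78 to 1.86) at 24 h of withdrawal. Fatty acid genes summed to 359.9, 343, 571, 345 and 314 CPM over the brequinar times and to 328, 294, 226, 429 and 308 CPM over the withdrawal times, with the same 2 high points but no high level left at 48 h. The 24 h high point of withdrawal was mainly Scd2, the most abundant of the 8, at 259.9 CPM against 154 CPM at 0 h. Of 5 measured fatty acid genes 1 was then called higher (Scd2) and 1 lower (Elovl6), beside 9.46% and 11.9% of all genes. Their median log2 ratio was 0.01. The regulators and the sterol carrier summed to 214, 150.03, 289, 231 and 281 CPM in the brequinar arm and to 194, 136, 153, 409 and 330.3 CPM in the withdrawal arm. All 3 sums were lower at 6 h than at 0 h in both arms.

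**Figure D1:**
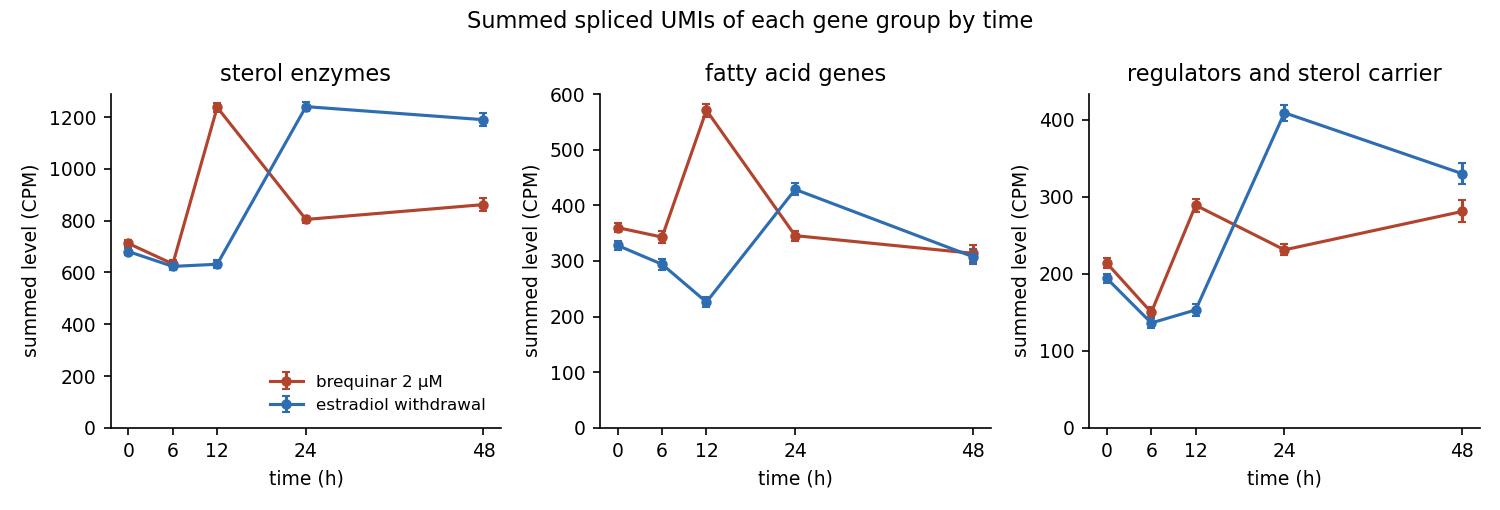
Summed level (CPM, vertical axis from 0) of 18 sterol enzymes, 8 fatty acid genes and 4 regulators and carrier genes against time (h) in the brequinar and withdrawal arms; points are single cultures and bars exact 95% counting intervals. The sterol sum is highest at 12 h of brequinar (1238 CPM) and at 24 h of withdrawal (1240.4 CPM).

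The time of the highest and lowest level was counted per gene after these values had been seen. In the brequinar arm 10 of 14 sterol enzymes and 5 of 6 fatty acid genes were highest at 12 h, against 18.8% of 6672 genes, and 8 of 14 sterol enzymes were lowest at 6 h, against 16.4%. In the withdrawal arm 8 of 14 sterol enzymes were highest at 24 h, against 7.56% of 6414 genes, and the other 5 besides Hmgcs1 at 48 h, against 21.2%. There, 10 of 14 were lowest at 12 h, a time at which 3.02% of all genes were lowest. Of the 6 fatty acid genes, 4 were lowest at 48 h of withdrawal (Acaca, Fasn, Fads1 and Elovl6), which held for 55.7% of all genes.

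Within the mevalonate pathway, Idi1, which interconverts the isoprenoid building blocks, gave a clear example of the 12 h peak. Idi1 had 57.5, 39.9, 159, 57.4 and 58.1 CPM at 0, 6, 12, 24 and 48 h of brequinar, and 52.4, 34.8, 28.8, 90.8 and 70.5 CPM at these times of withdrawal. The 12 h brequinar culture stood above the other 9 cultures, 2.76-fold higher than 0 h (2.57 to 2.96), while the 12 h withdrawal culture was the lowest of the 10 and 1.82-fold lower than its 0 h culture (1.60 to 2.07). Acat2, the thiolase that joins acetyl-CoA units, had 32.7, 18.3, 83.3, 46.6 and 34.4 CPM in the brequinar arm and 34.4, 18.9, 18.4, 47.8 and 22.7 CPM in the withdrawal arm. Its 12 h brequinar level was 2.55-fold that of 0 h (2.32 to 2.81), and its levels at 6 h in either arm and at 12 h of withdrawal were close together at the low end. Pmvk, a kinase of mevalonate, had 49.2, 55.7, 116, 95.4 and 81.3 CPM in the brequinar arm and 48.3, 52.4, 40.9, 100.4 and 129.5 CPM in the withdrawal arm. Pmvk had no low point at 6 h and stayed at least 1.5-fold above 0 h at every later time of brequinar.

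The kinase before it, Mvk, showed smaller differences: 28.1, 26.9, 46.2, 31.9 and 23.1 CPM in the brequinar arm and 27.9, 25.7, 23.9, 43.5 and 38.8 CPM in the withdrawal arm. Fdps makes farnesyl diphosphate, the branch point to sterols, prenylated proteins and ubiquinone. It had 32.4, 23.6, 48.6, 39.7 and 54.2 CPM in the brequinar arm and 29.4, 21.3, 18.3, 115 and 115 CPM in the withdrawal arm, where it was 3.91-fold higher than 0 h at 24 h (3.55 to 4.31) and 3.92-fold higher at 48 h (3.51 to 4.38). The withdrawal cultures at 24 and 48 h stood above the 8 others. Of the 31-base words in the last 500 bases of the longest Fdps transcript, 23.2% also occur in other genes, among them Gm43738 and Gm8163, so its counts may be split with these copies.

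Hmgcs1, the synthase that commits acetyl units to the mevalonate route, did not follow the other sterol enzymes. It had 77.3, 88.5, 80.4, 76.5 and 60.3 CPM in the brequinar arm and 73.7, 121, 166, 87.7 and 81.7 CPM in the withdrawal arm. The withdrawal cultures at 6 and 12 h stood above the other 8, at 1.64-fold (1.52 to 1.77) and 2.26-fold (2.10 to 2.42) the 0 h level, and at 12 h 10 of the other 13 measured sterol enzymes were at their lowest in that arm. No brequinar time was called for Hmgcs1, and at 12 h the ratio to 0 h was 1.04 (0.966 to 1.12). Within S class and G2/M class cells (cell cycle score classes, described below) the 12 h withdrawal level was also the highest of the arm, at 152 and 182 CPM against 61.6 and 81.1 CPM at 0 h.

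From squalene to cholesterol, Fdft1 (squalene synthase) had 19.4, 20.3, 31.8, 23.2 and 37.8 CPM in the brequinar arm and 16.9, 19.0, 16.8, 37.3 and 56.2 CPM in the withdrawal arm, highest at 48 h in both. Sqle, the epoxidase that uses squalene, had 63.6, 47.7, 84.1, 55.1 and 59.4 CPM and 61.8, 45.6, 35.4, 79.8 and 61.5 CPM in the same order, and its called differences from 0 h were limited to 12 h of withdrawal, where it was 1.75-fold lower (1.56 to 1.97). At 12 h of withdrawal both genes had their lowest level of that arm.

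Cyp51, the demethylase of lanosterol, had 80.2, 69.0, 157, 71.1 and 88.8 CPM in the brequinar arm and 68.4, 52.4, 50.6, 153 and 93.0 CPM in the withdrawal arm, so that 1 culture of each arm stood well above the other 4. Its fold over 0 h was 1.96 (1.84 to 2.09) at 12 h of brequinar and 2.23 (2.08 to 2.39) at 24 h of withdrawal. Msmo1, the methylsterol oxidase of the next steps, had 72.6, 53.3, 162, 74.6 and 103 CPM in the brequinar arm and 69.4, 47.7, 48.3, 148 and 158 CPM in the withdrawal arm, with the same 12 h peak under brequinar and a high level kept at 48 h of withdrawal. Nsdhl, the dehydrogenase that works with it, had 19.7, 16.8, 31.7, 24.6 and 20.8 CPM and 19.3, 16.9, 15.1, 41.8 and 40.2 CPM in the same order.

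The late steps were less alike. Ebp, a sterol isomerase, had 104, 97.5, 125, 103 and 66.5 CPM in the brequinar arm and 106, 105, 111, 119 and 110.0 CPM in the withdrawal arm, and was called once, 1.56-fold lower (1.39 to 1.76) at 48 h of brequinar. Sc5d, the desaturase that follows, had 48.5, 54.6, 63.0, 70.4 and 140.4 CPM in the brequinar arm and 46.3, 47.1, 38.6, 129.6 and 169.8 CPM in the withdrawal arm. It had no 12 h peak: the 48 h culture was the highest in both arms, 2.90-fold (2.63 to 3.19) and 3.66-fold (3.35 to 4.01) the 0 h level. Dhcr7, a reductase of the last steps, had 14.6, 10.2, 24.6, 15.1 and 16.04 CPM and 13.2, 7.86, 9.67, 22.5 and 16.6 CPM in the same order, with 12 h of brequinar and 24 h of withdrawal again the highest of their arms.

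**Figure D2:**
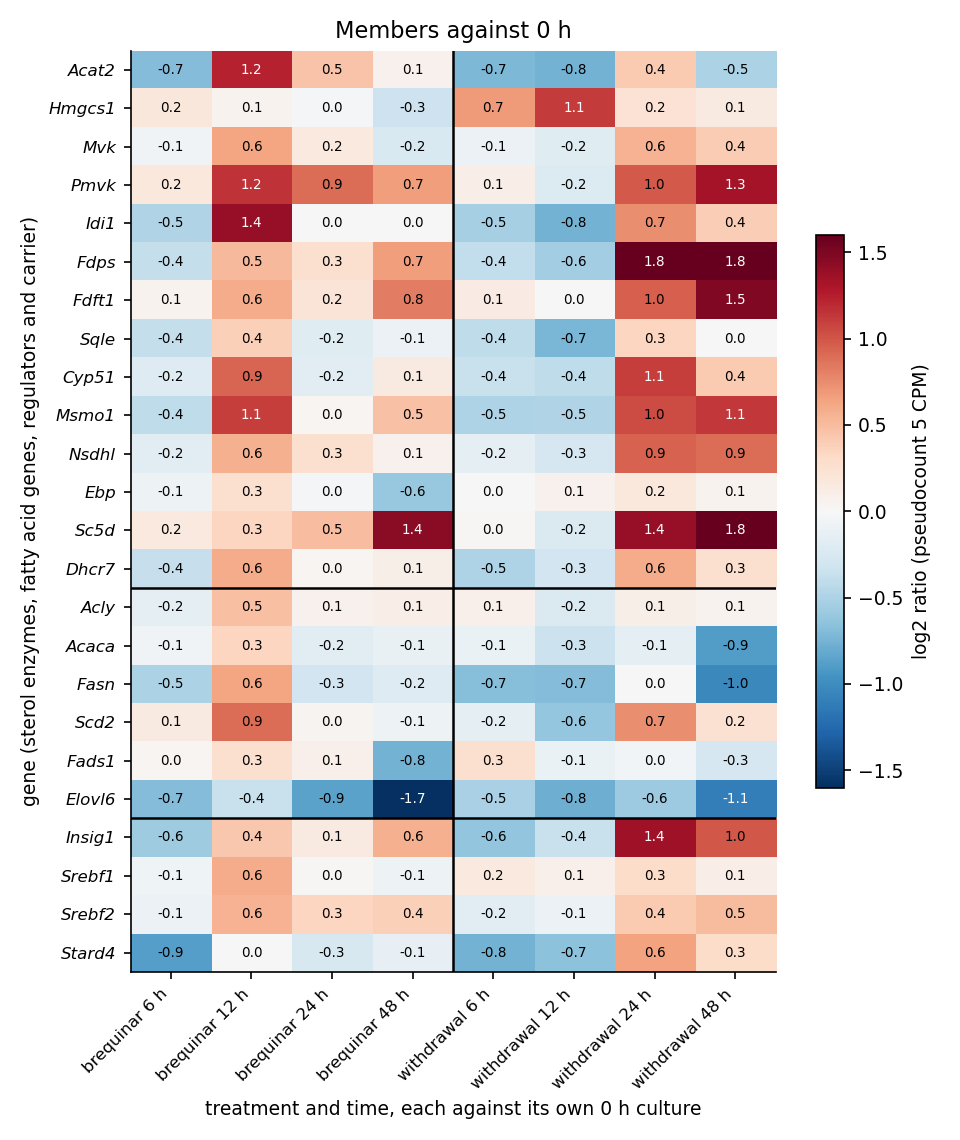
Log2 ratio (pseudocount 5 CPM) to the 0 h culture of the same arm, colour and number, for the 24 members at 20 CPM or more in any culture (rows: sterol enzymes, fatty acid genes, regulators and carrier) at 6, 12, 24 and 48 h of brequinar (left) and withdrawal (right); the colour scale ends at 1.6 in either direction. The 12 h brequinar column and the 24 h withdrawal column are red for most sterol enzymes, while Hmgcs1 is red at 6 and 12 h of withdrawal and Elovl6 is blue throughout.

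Counted against 0 h, brequinar gave 10 of 14 measured sterol enzymes higher and 0 lower at 12 h, where 13.5% of 6000 genes were called higher and 4.67% lower. Their median log2 ratio was 0.59, beside 0.10 over all measured genes. Fdft1, Nsdhl and Dhcr7 among the 10 were below 20 CPM at 0 h and passed the level filter only through the 12 h culture. At 6 h 1 of 12 was lower (Acat2) and 0 higher, beside 4.97% and 8.82% of all genes, with a median of -0.15 beside 0.05. At 24 h 1 of 13 was higher (Pmvk) and 0 lower, a time at which 29.2% of all genes were higher and 13.8% lower, and the median of 0.15 was close to that of all genes, 0.16. At 48 h 4 of 13 were higher (Pmvk, Fdps, Fdft1 and Sc5d) and 1 lower (Ebp), with a median of 0.07 beside 0.04 and beside 25.7% and 17.3% of all genes. Fdft1 was at 48 h again measured only through the treated culture. The members' share of calls was far above that of all genes at 12 h, and near or below it at 24 and 48 h.

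Withdrawal gave 10 of 14 sterol enzymes higher and 0 lower at 24 h, where 9.46% of 5690 genes were higher and 11.9% lower. The median log2 ratio was 0.84, beside -0.14 over all measured genes, and again Fdft1, Nsdhl and Dhcr7 passed the filter only through the treated culture. At 6 h 1 of 11 was higher (Hmgcs1) and 2 lower (Acat2 and Idi1), beside 12.3% and 8.11% of all genes, with a median of -0.36 beside 0.06. At 12 h 1 of 11 was higher (Hmgcs1) and 4 lower (Acat2, Idi1, Fdps and Sqle), beside 13.4% and 11.2%, with a median of -0.40 beside 0.01. Acat2 and Fdps were then below 20 CPM and measured only through the 0 h culture, as was Acat2 at 6 h in each arm, so these could be called lower but not higher. At 48 h 6 of 13 were higher (Pmvk, Fdps, Fdft1, Msmo1, Nsdhl and Sc5d) and 1 lower (Acat2), in a culture where 21.5% of genes were higher and 40.7% lower, with a median of 0.42 beside -0.33. Fdft1 and Nsdhl were at 48 h again measured only through the treated culture, so they could not be called lower. With such genes counted, the share of sterol enzymes called higher was above that of all genes at 24 and at 48 h.

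Total UMIs set the scale of these ratios, and the median ratio of all measured genes lay off 0 in several comparisons. Without a pseudocount it was 0.11 and 0.17 on the log2 scale at 12 and 24 h of brequinar, -0.15 and -0.36 at 24 and 48 h of withdrawal, and 0.10, 0.26 and 0.38 for brequinar over withdrawal at 12, 24 and 48 h. With ratios centred on that median, sterol enzymes higher than 0 h numbered 8 at 12 h of brequinar, 11 at 24 h of withdrawal and 9 at 48 h of withdrawal, with 0 lower in each. At 6 h of withdrawal 1 was then higher and 3 lower. Of fatty acid genes, 1 was then higher and 0 lower at 24 h of withdrawal, and 1 higher and 3 lower at 48 h. The eosinophil marker sum moved with the 24 h withdrawal culture: it was 16602 CPM, against 1237 CPM at 0 h, with 3 of 9 markers at 20 CPM and Ear1 and Ear2 at 0 in both cultures. Prg2 and Prg3 made up most of it at 24 h, at 9559 and 6973 CPM. The eosinophil sum was also 4737 CPM at 12 h of withdrawal and 9181 CPM at 48 h. In the brequinar arm it was 1520.4 CPM at 12 h, 3581 CPM at 24 h and 11671 CPM at 48 h, against 1445 CPM at 0 h. At 12 h of brequinar the neutrophil granule sum was 570.1 CPM, against 329 CPM at 0 h, and the mast cell and basophil sum 663 CPM, against 430.01 CPM. Markers of neutrophil granules moved with the 48 h withdrawal culture: 9 of 10 reached 20 CPM and their sum was 58969.7 CPM, against 386 CPM at 0 h with 5 of 10 at 20 CPM. None of the 10 was at 0 in either culture. At 48 h of brequinar their sum was 1959.8 CPM, against 329 CPM at 0 h, where Cd177 was at 0. The mast cell and basophil sum was 3213 CPM at 48 h of brequinar, and 293 CPM at 48 h of withdrawal, against 458 CPM at 0 h of withdrawal. The monocyte and macrophage sum was 429 and 702 CPM at 24 and 48 h of brequinar and 433 CPM at 48 h of withdrawal. It was 113 CPM in each 0 h culture. The part of these marker shifts in the sterol and fatty acid gene levels was not tested.

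The genes of fatty acid synthesis shared the 12 h peak of brequinar, but not the lasting level of withdrawal. Scd2, a desaturase that makes monounsaturated fatty acids, had 168, 186, 315, 173 and 158 CPM at 0, 6, 12, 24 and 48 h of brequinar, and 154, 137, 98.2, 259.9 and 182 CPM at these times of withdrawal. Both high cultures stood apart, at 1.88-fold (1.80 to 1.96) the 0 h level at 12 h of brequinar and 1.69-fold (1.61 to 1.77) at 24 h of withdrawal, and 12 h of withdrawal gave the lowest of the 10 values. Fasn, the synthase of palmitate, had 38.3, 25.4, 61.9, 29.9 and 32.7 CPM in the brequinar arm and 34.0, 19.4, 19.1, 34.3 and 14.1 CPM in the withdrawal arm. It was called lower at 6 h in both arms, and at 24 h of withdrawal it was level with 0 h, where Scd2 was high.

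Acly, which makes cytosolic acetyl-CoA from citrate and so feeds both pathways, kept between 60.6 and 83.1 CPM in 9 cultures and had 109.9 CPM at 12 h of brequinar, 1.42-fold its 0 h level of 77.1 CPM (1.33 to 1.53). Acaca, the carboxylase of acetyl-CoA, had 22.3, 21.2, 29.6, 19.0 and 20.1 CPM in the brequinar arm and 20.6, 18.9, 15.2, 18.3 and 8.74 CPM in the withdrawal arm, where 48 h was 2.36-fold lower than 0 h (1.79 to 3.15). Fads1, a desaturase of polyunsaturated fatty acids, had 21.8, 22.2, 27.1, 23.4 and 10.9 CPM and 17.9, 22.4, 16.2, 17.3 and 14.0 CPM in the same order. Its low value at 48 h of brequinar was the 1 call among its comparisons with 0 h.

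Elovl6, the elongase that turns palmitate into stearate, was below its 0 h level at every later time. It had 26.5, 14.6, 19.6, 12.5 and 4.77 CPM in the brequinar arm and 25.5, 16.4, 12.8, 15.4 and 9.18 CPM in the withdrawal arm. Each of the 8 treated cultures was below both 0 h cultures. Among these, 12 h of brequinar was higher than 6 or 24 h, with intervals that do not overlap. At 48 h the level was 5.56-fold lower than 0 h in the brequinar arm (3.72 to 8.67) and 2.78-fold lower in the withdrawal arm (2.13 to 3.67).

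By count, 0 of 6 fatty acid genes were higher and 2 lower (Fasn and Elovl6) at 6 h of either treatment, beside 4.97% of all genes lower under brequinar and 8.11% under withdrawal. At 24 h of brequinar 0 of 6 were higher and 1 lower (Elovl6), near the 13.8% of all genes, and at 48 h 0 were higher and 2 lower (Fads1 and Elovl6), beside 17.3%. At 12 h of withdrawal 0 of 5 were higher and 3 lower (Fasn, Scd2 and Elovl6), with a median log2 ratio of -0.62 beside 0.01 over all genes, of which 11.2% were lower. Apart from Fasn at 6 h of brequinar and Scd2, each of these lower genes was below 20 CPM in the treated culture. They passed the filter only through the 0 h culture, so they could be called in no other direction. At 12 h of brequinar 2 of 6 fatty acid genes were higher (Fasn and Scd2) and 0 lower, beside 13.5% and 4.67% of all genes, with a median log2 ratio of 0.41 beside 0.10. At 24 h of withdrawal 1 of 5 was higher (Scd2) and 1 lower (Elovl6, again measured only through 0 h), beside 9.46% and 11.9%, with a median of 0.01 beside -0.14. At 48 h of withdrawal 0 of 5 were higher and 3 lower (Acaca, Fasn and Elovl6), with a median of -0.90 beside -0.33 over all genes. Lower calls were common in that culture (40.7% of all genes), and all 3 were below 20 CPM at 48 h and so passed the filter only through the 0 h culture. Centring left 1 of 6 higher at 12 h of brequinar (Scd2).

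**Figure D3:**
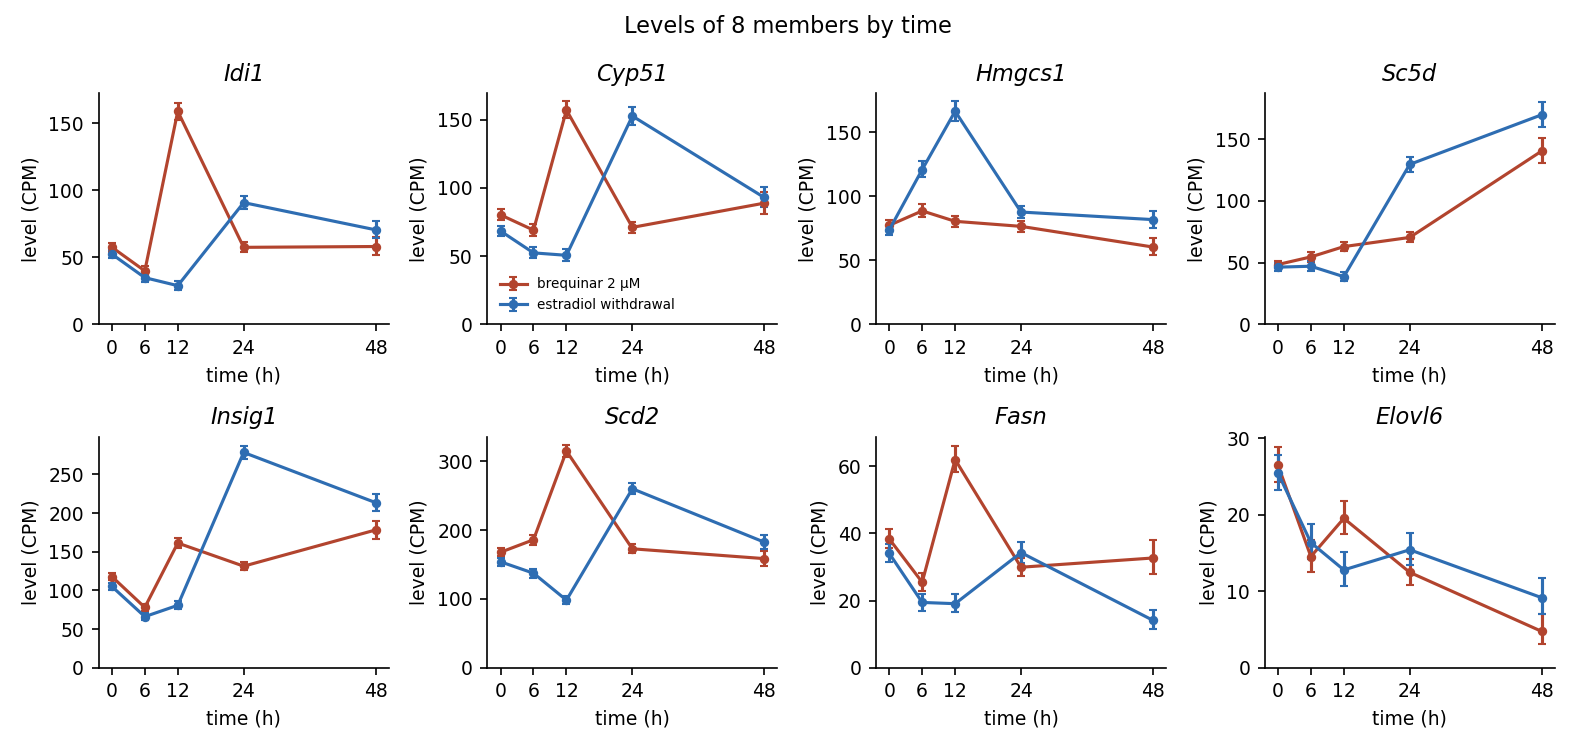
Level (CPM, vertical axes from 0 and scaled per gene) of 8 members against time (h) in the brequinar and withdrawal arms; points are single cultures and bars exact 95% counting intervals. Idi1, Cyp51 and Scd2 peak at 12 h of brequinar and 24 h of withdrawal, Hmgcs1 peaks at 12 h of withdrawal (166 CPM), Sc5d is highest at 48 h in both arms, and Elovl6 is below its 0 h level at each later time.

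Among the regulators, Insig1, which holds SREBP precursors in the endoplasmic reticulum and is itself an SREBP target, had 118, 78.1, 161, 131 and 178 CPM in the brequinar arm and 105, 66.2, 80.8, 278 and 214 CPM in the withdrawal arm. It was lowest at 6 h in both arms, 1.51-fold (1.40 to 1.63) and 1.59-fold (1.46 to 1.73) lower than 0 h, and highest at 24 h of withdrawal, 2.65-fold higher than 0 h (2.51 to 2.79). Stard4, a carrier of sterol between membranes, had 39.1, 19.0, 38.9, 31.9 and 35.3 CPM in the brequinar arm and 36.3, 19.4, 21.2, 59.8 and 45.5 CPM in the withdrawal arm. The 6 h cultures were the lowest of each arm, at 2.05-fold (1.78 to 2.38) and 1.87-fold (1.61 to 2.18) below 0 h, and the 12 h brequinar culture was back at the 0 h level rather than above it.

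The genes of the transcription factors themselves were each called once against 0 h. Srebf2, which drives mainly sterol genes, had 36.2, 33.6, 55.6, 47.0 and 48.5 CPM in the brequinar arm and 35.4, 31.02, 32.8, 48.9 and 52.5 CPM in the withdrawal arm, and was called at 12 h of brequinar alone, 1.54-fold higher (1.39 to 1.70). Srebf1, which drives mainly fatty acid genes, had 20.5, 19.3, 33.4, 20.9 and 19.1 CPM and 17.1, 19.7, 18.4, 22.2 and 18.8 CPM in the same order. Its 12 h brequinar culture stood above the other 9, 1.63-fold higher than 0 h (1.43 to 1.86). At 6 h 2 of 4 measured genes of this group were lower under brequinar and 2 of 3 under withdrawal, Insig1 and Stard4 in each arm. Of all genes, 4.97% and 8.11% were lower in these cultures. Stard4 was then measured only through the 0 h culture, so it could not be called higher. At 12 h of brequinar 2 of 4 were higher (Srebf1 and Srebf2), beside 13.5% of all genes. At 24 h of withdrawal 2 of 4 were higher (Insig1 and Stard4), beside 9.46%. The medians at these last 2 times were 0.50 and 0.53 on the log2 scale, beside 0.10 and -0.14 over all genes.

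Set directly side by side, the arms differed in no called member at 6 h and in most members at 12 h. At 6 h of brequinar and of withdrawal 0 of 18 measured members were called higher or lower, beside 1.9% and 1.45% of all genes. At 12 h 12 of 14 sterol enzymes, 5 of 5 fatty acid genes and 4 of 4 regulators and carrier genes were higher under brequinar than under withdrawal, and 1 was lower, Hmgcs1, beside 13.2% of 6086 genes higher and 7.33% lower. The median log2 ratio of the sterol enzymes was 1.08, beside 0.09 over all genes. Idi1 was 5.51-fold higher (4.90 to 6.22), at 159 CPM under brequinar and 28.8 CPM under withdrawal, and Acat2 4.52-fold higher (3.90 to 5.27), at 83.3 and 18.4 CPM. Hmgcs1 was 2.07-fold lower (1.92 to 2.22), at 80.4 CPM under brequinar and 166 CPM under withdrawal. Of the 21 members higher, 9 were below 20 CPM under withdrawal and passed the filter only through the brequinar culture.

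At 24 h the order was turned round. Of 14 sterol enzymes 0 were higher and 7 lower under brequinar than under withdrawal (Idi1, Fdps, Fdft1, Cyp51, Msmo1, Nsdhl and Sc5d), beside 29.6% of all genes higher and 8.05% lower, with a median log2 ratio of -0.54 beside 0.23. Fdps was 2.89-fold lower (2.64 to 3.17), at 39.7 CPM under brequinar and 115 CPM under withdrawal, and Insig1 2.12-fold lower (2.01 to 2.23), at 131 and 278 CPM. At 48 h 1 of 13 sterol enzymes was higher (Acat2) and 6 lower (Mvk, Pmvk, Fdps, Msmo1, Nsdhl and Ebp), beside 37.6% of all genes higher and 8.57% lower, with a median of -0.52 beside 0.34. Fasn and Acaca were at 48 h 2.31-fold (1.79 to 2.995) and 2.29-fold (1.65 to 3.20) higher under brequinar. Both were below 20 CPM under withdrawal and measured only through the brequinar culture, so they could be called in that direction alone. With ratios centred on the median gene, 10 of 14 sterol enzymes were lower at 24 h and 10 of 13 at 48 h, and 0 were higher at either time, while 2 of 4 fatty acid genes were higher and 1 lower at 48 h. The neutrophil granule sums at 48 h, 1959.8 CPM under brequinar and 58969.7 CPM under withdrawal, stand beside these values.

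**Figure D4:**
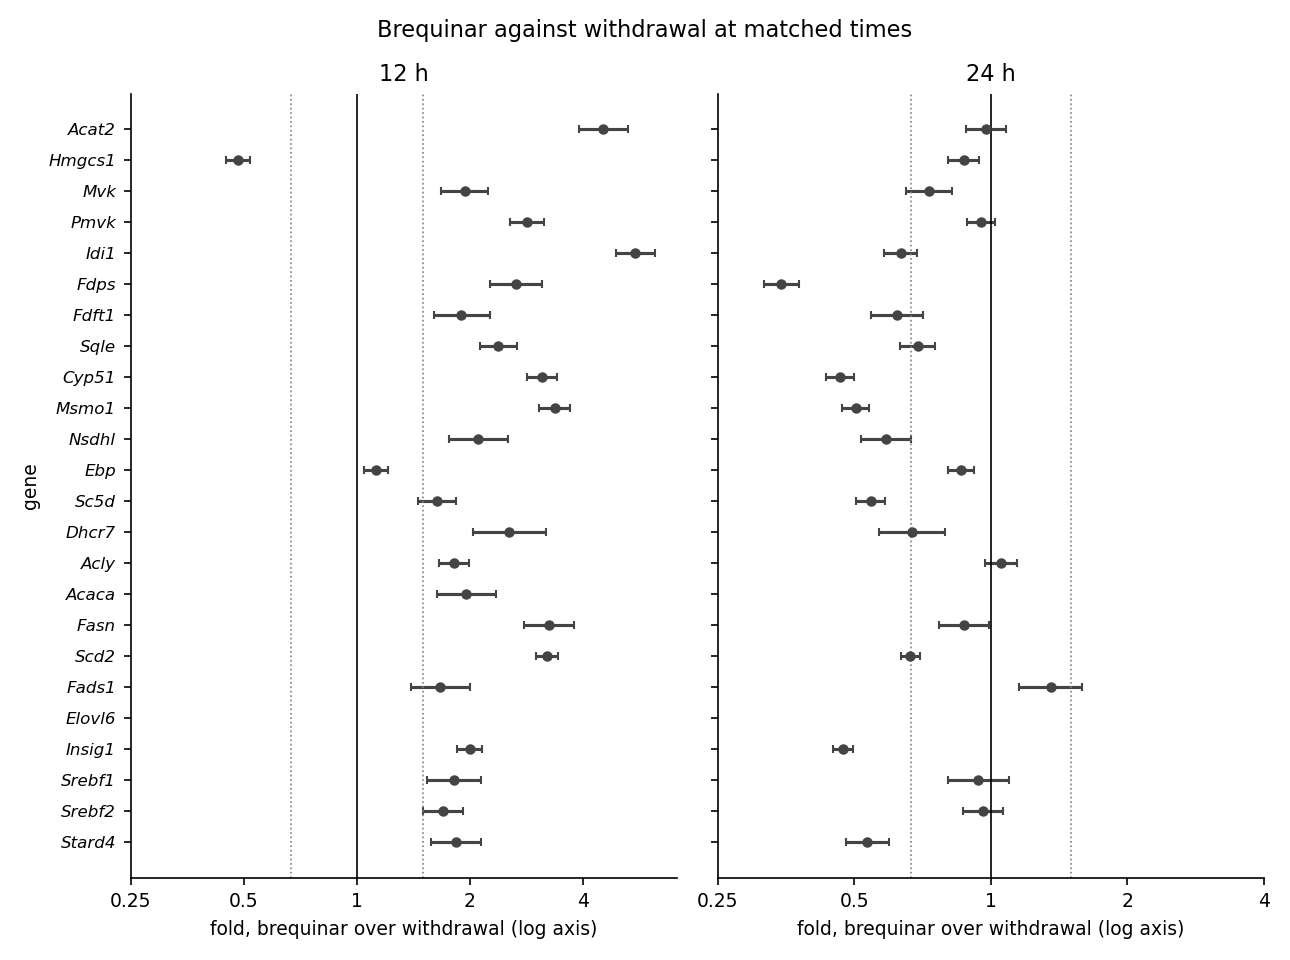
Fold of brequinar over withdrawal (horizontal log axis) at 12 h and at 24 h for the members measured in that comparison, with exact 95% counting intervals; the solid line marks equal levels and the dotted lines 1.5-fold in either direction. At 12 h nearly every member lies right of the dotted line, Idi1 at 5.51-fold, with Hmgcs1 alone on the left, and at 24 h 7 sterol enzymes lie left of it.

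At 12 h of brequinar and 24 h of withdrawal the sterol UMIs per cell were higher at each percentile taken. After each cell was thinned to 2500 UMIs, a cell of the 12 h brequinar culture held 3.22 sterol enzyme UMIs on average, against 1.81 in the 0 h culture, over 1324 and 1309 cells (212 and 194 shallower cells were left out). The 10th, 50th and 90th percentiles were 1, 3 and 7 UMIs at 12 h, and 0, 2 and 4 UMIs at 0 h. Counts this low also vary by sampling between like cells, so a percentile does not mark a class of cells. Cells with at least 1 such UMI were 91.2% at 12 h, where Poisson counts of the same mean would give 96.0%. At 0 h they were 79.6%, against 83.7%. Without thinning, the median cell had 989.6 CPM at 12 h and 619.8 CPM at 0 h. Variance over mean was 2.25 at 12 h of brequinar, against 1.44 at 0 h, and the 10% of cells with the most sterol UMIs held 28.5% of them at 12 h and 28.6% at 0 h. In the withdrawal arm the mean was 3.16 UMIs at 24 h, against 1.67 UMIs at 0 h, with percentiles of 1, 3 and 6 UMIs at 24 h and 0, 1 and 4 UMIs at 0 h. These are spreads over the cells of 1 culture, which are not replicates.

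Cell cycle score classes were compared because their shares differed between cultures. By scores on lists of S phase and G2/M genes, 47.4% of the thinned cells were S class at 12 h of brequinar and 14.7% at 24 h, against 44.1% at 0 h, and 52.0% were G1-like (neither score above 0) at 48 h of withdrawal, against 0.938% at 0 h. Within the S class the sterol sum at 12 h of brequinar was 1299.9 CPM against 738 CPM at 0 h, 1.76-fold, and within the G2/M class 1216 CPM against 693 CPM, 1.75-fold. In G1-like cells it was 686 CPM against 876 CPM at 0 h, from 22 and 21 cells. At 24 h of withdrawal the sum was 1376 CPM in G1-like cells, 1136 CPM in S class cells and 1289 CPM in G2/M class cells, against 668, 677 and 682 CPM at 0 h, where the G1-like class held 11 cells. Sterol enzymes called higher numbered 9 of 15 in the S class and 10 of 14 in the G2/M class at 12 h of brequinar, and 8 of 13 and 10 of 14 in these classes at 24 h of withdrawal. At 12 h of brequinar Fdft1, Nsdhl and Hsd17b7 in the S class, and Dhcr7 in the G2/M class, were below 20 CPM at 0 h. At 24 h of withdrawal this held for Fdft1 and Nsdhl in both classes and for Dhcr7 in the G2/M class. These were measured only through the treated culture and could not be called lower. The share of all genes called within a class was not counted. Median log2 ratios of the sterol enzymes were 0.54 and 0.70 at 12 h of brequinar, beside 0.10 in both classes over all genes. At 24 h of withdrawal they were 0.76 and 0.92, beside -0.13 in both. By the sums, the fold over 0 h at 12 h of brequinar was as large within each of the S and G2/M classes as over all cells. The high 24 h level under withdrawal was present in each of the 3 classes.

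**Figure D5:**
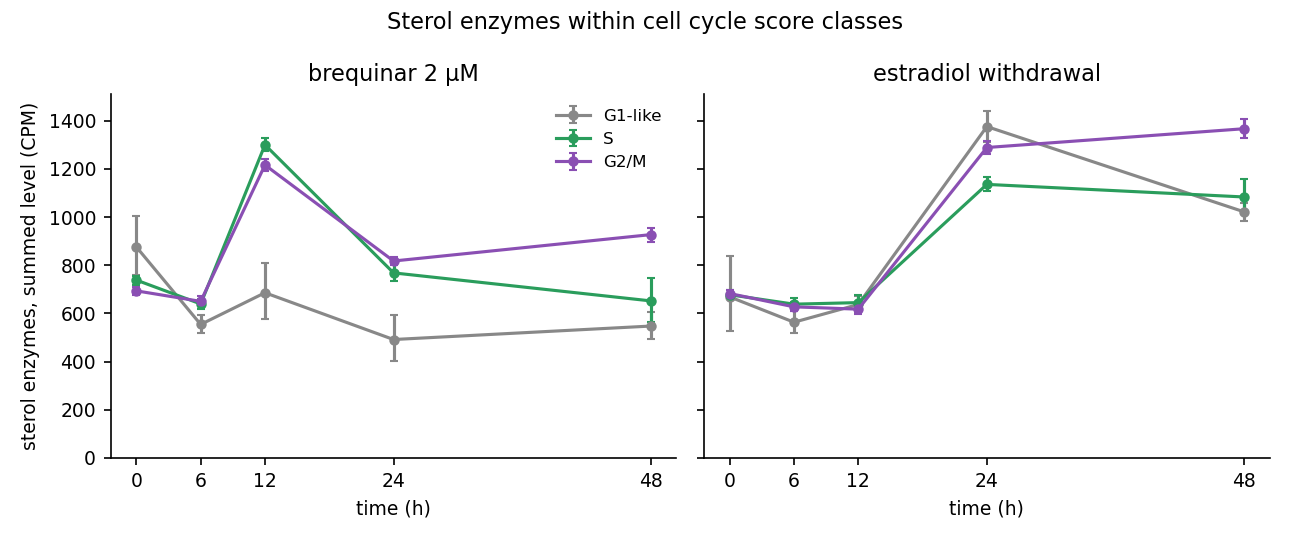
Summed sterol enzyme level (CPM, vertical axis from 0) within G1-like, S and G2/M score classes against time (h) in the brequinar arm (left) and the withdrawal arm (right); points are single cultures and bars exact 95% counting intervals. S and G2/M class cells peak at 12 h of brequinar at 1299.9 and 1216 CPM, and each of the 3 classes is high at 24 h of withdrawal.

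Neighbouring lipid pathways were set beside the members. Their genes were not picked for how they moved, whereas the members were chosen with earlier results of these data known. In the list of SREBP processing and sterol uptake, 2 of 12 measured genes were higher at 12 h of brequinar, near the 13.5% of all genes, and 4 of 11 at 24 h of withdrawal, beside 9.46%. Lipa, the lysosomal lipase that frees cholesterol from its esters, had 13.1, 16.3, 33.8, 65.6 and 46.2 CPM in the brequinar arm and 13.6, 25.5, 39.9, 28.1 and 74.5 CPM in the withdrawal arm. It counts among the higher genes at both times above, but was below 20 CPM at 0 h and passed the filter only through the treated cultures. Npc2, which carries cholesterol out of lysosomes, was at 704 CPM at 48 h of brequinar, against 317 CPM at 0 h, and at 917 CPM at 48 h of withdrawal, against 319 CPM at 0 h.

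Of the genes of sterol export and storage, 3 of 6 measured were higher at 6 h in each arm and 0 lower, beside 8.82% of all genes higher in the 6 h brequinar culture and 12.3% in the 6 h withdrawal culture. Osbpl2, among the 3 in each arm, was below 20 CPM at 0 h and passed the filter only through the 6 h cultures. Abcg1, an exporter of cholesterol, had 105, 217, 181, 266 and 90.5 CPM in the brequinar arm and 106, 208, 165, 49.1 and 68.0 CPM in the withdrawal arm. Abcg1 was called higher than 0 h in the 6, 12 and 24 h brequinar cultures and the 6 and 12 h withdrawal cultures, and lower at 24 and 48 h of withdrawal. Soat1, which esterifies cholesterol for storage, had 86.8, 111, 99.3, 203 and 164 CPM in the brequinar arm and 86.4, 119, 179, 135 and 198 CPM in the withdrawal arm.

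Of the isoprenoid branch, 0 of 8 genes were higher in the 12 h brequinar culture, beside 13.5% of all genes, and 0 of 8 at 24 h of withdrawal, beside 9.46%. Counts this small are near those shares. Pdss1, a ubiquinone side chain synthase, had 38.7, 23.2, 30.1, 20.8 and 22.2 CPM in the brequinar arm and 39.5, 24.1, 18.7, 24.1 and 8.45 CPM in the withdrawal arm, so each treated culture was below both 0 h cultures. Of other sterol synthesis genes, 3 of 7 were higher at 12 h of brequinar and 2 of 7 at 24 h of withdrawal, beside the same 13.5% and 9.46% of all genes. Tmem97, a sterol-responsive membrane protein, had 233, 165, 201, 111 and 159 CPM in the brequinar arm and 232, 142, 121, 212 and 65.3 CPM in the withdrawal arm, low at 6 h in both and near 0 h again by 12 h of brequinar and by 24 h of withdrawal.

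On the fatty acid side, 1 of 14 other synthesis and elongation genes was higher at 12 h of brequinar and 2 of 14 at 24 h of withdrawal, near the shares of all genes (13.5% and 9.46%). At 48 h of withdrawal 7 of 14 were lower, beside 40.7% of all genes. Hacd1, a dehydratase of the elongation cycle, had 44.1 CPM at 48 h of withdrawal, against 198 CPM at 0 h. Of the fatty acid oxidation list, 6 of 15 genes were higher at 24 h of brequinar, beside 29.2% of all genes, and 0 of 13 at 24 h of withdrawal, beside 9.46%. At 24 h of withdrawal Cpt1a, which admits fatty acids to mitochondria, was at 7.96 CPM against 28.3 CPM at 0 h. In the list of uptake and lipid droplets 5 of 8 were higher at 48 h of brequinar, beside 25.7% of all genes, and 5 of 9 at 48 h of withdrawal, beside 21.5%. Dgat1 and Dgat2 make triglyceride: Dgat1 was at 79.4 CPM at 48 h of brequinar, against 18.7 CPM at 0 h, and at 158 CPM at 48 h of withdrawal, against 18.1 CPM at 0 h, while Dgat2 was at 83.3 CPM at 48 h of withdrawal, against 5.53 CPM at 0 h. Fabp5, a fatty acid binding protein, went the other way, with 45.1 CPM at 48 h of brequinar against 260.4 CPM at 0 h, and 22.9 CPM at 48 h of withdrawal against 267 CPM at 0 h. Among the phospholipid synthesis genes 3 of 9 were higher at 12 h of brequinar and 3 of 9 at 24 h of withdrawal, beside 13.5% and 9.46% of all genes. The 3 at 12 h of brequinar (Pcyt2, Chpt1 and Etnk1) were below 20 CPM at 0 h. The same held for Pcyt1a, Chpt1 and Acsl1 at 24 h of withdrawal and for Acadvl at 24 h of brequinar. At 48 h it held for Plin3, Dgat1 and Dgat2 in both arms and for Mgll under withdrawal. All these passed the filter only through the treated culture and could not be called lower. Mcat, Hacd3, Acsl3 and Acsl5, lower at 48 h of withdrawal, were measured only through the 0 h culture. Pcyt1a, the rate-limiting enzyme of phosphatidylcholine synthesis, had 12.8, 17.4, 16.6, 65.2 and 61.7 CPM in the brequinar arm and 12.8, 16.6, 27.1, 40.7 and 50.3 CPM in the withdrawal arm, highest at the late times and not at 12 h of brequinar.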

How the data were processed

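Cells of 10 barcoded 63.3 cultures were pooled and loaded for 2 runs, as the labels describe. What the authors deposited is a matrix of counts of spliced UMIs, not normalized, which joins the runs, and a barcode call for each cell. Cell Ranger, kallisto 0.46 and bustools 0.39.4 are listed as tools, per the submitters' processing notes. For these counts a genome build or annotation is not given in the sources used here. Of 54838 gene IDs 54723 were given a symbol, and IDs that share one were summed. Cells called doublet (2777) or negative (265, among them all 26 barcodes listed more than once) were left out, and no doublet caller was run. No run is marked in the barcodes, and those that both runs share could not be counted.

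The 12540 singlet cells held 134068354 of 209704818 spliced UMIs (63.9%). Counts were summed per culture and scaled to CPM (python 3.11.15, pandas 2.3.3). Level intervals are exact Poisson and ratio intervals conditional binomial (Clopper-Pearson, scipy 1.17.1), at 95%. UMIs of 1 pool are no replicates, so no test was run. Log2 ratios use a pseudocount of 5 CPM. A sum of 3 counts is 0.151 to 0.573 CPM. Treated cultures were set against 0 h of their own arm, and brequinar with withdrawal at matched times. Cell cycle scores (scanpy 1.11.5) used cells thinned to 2500 UMIs. Cells with neither score above 0 were G1-like, and the rest took the class of their higher score. The ratio step was tested on simulated counts. Promoter windows are RefSeq's for GRCm38.p6, and the bases after the start begin a GENCODE M21 transcript for 22 of 28 windows. Where a gene had several windows, a match in any of them counted.

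The members, the lists, the thresholds and the alternatives were chosen with earlier results of these data known. Members called in at least 1 comparison with 0 h are given with their level in each culture. Of the other lipid lists, genes with the largest ratios are named, and not all of these are reported here. Faxdc2 and Ept1 of these lists matched no symbol.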

Additional observations from a re-analysis of the deposited data

Results flagged for a closer look

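At 12 h 5 members were called in opposite directions against the 0 h culture of their arm, which is why they are listed. Idi1 was 2.76-fold its 0 h level under brequinar and 0.55 times its 0 h level under withdrawal. For Acat2 the ratios were 2.55 under brequinar and 0.535 under withdrawal. Scd2 stood at 1.88 under brequinar and 0.638 under withdrawal, Fasn at 1.62 and 0.56, and Fdps at 1.5 and 0.623. Each ratio rests on 1 culture against 1 culture, and the difference between the arms was not tested. At 12 h of withdrawal Acat2, Fdps and Fasn were below 20 CPM and measured only through the 0 h culture. There they could be called lower but not higher. The Fdps ratio under brequinar lay at the 1.5-fold threshold. The share of all genes called in opposite directions was not counted.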

How the results depend on the processing

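Of 368 counts of sterol enzymes and fatty acid genes called under the alternatives, 281 were within 1.5 times the reported count and 87 were not. These counts take 1 direction, higher or lower, per gene group and comparison. Of as many medians, 266 moved by 0.1 or less on the log2 scale and 97 moved further. The other 5, all with reported medians at least 0.3 in size, changed sign. Smaller reported medians that changed sign are not among these 5. The cause was not tested unless the alternative itself gives it (another fold, fewer genes or cells). None of these 368 counts moved under use of the most abundant ID, removal of 5% free RNA, or omission of the 2% of cells richest in granule UMIs. Below, counts of genes called are the alternative's, with the reported one in parentheses. "Sterol" is short for sterol enzymes and "fatty acid" for fatty acid genes.

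With the fold threshold at 25% above equal levels, sterol lower at 6 h of brequinar were 5 (1), fatty acid higher at 12 h 4 (2), sterol higher at 24 h 3 (1), fatty acid lower at 24 h 2 (1), and sterol lower at 6 h of withdrawal 6 (2). Between arms at 6 h, sterol higher were 1 (0) and fatty acid higher 2 (0). With 2-fold, brequinar gave sterol lower 0 (1) and fatty acid lower 0 (2) at 6 h, sterol higher 4 (10) and fatty acid higher 0 (2) at 12 h, and sterol higher 0 (1) at 24 h and 1 (4) at 48 h. Withdrawal gave sterol lower 0 (2) and fatty acid lower 0 (2) at 6 h, sterol lower 0 (4) and fatty acid lower 0 (3) at 12 h, and fatty acid higher 0 (1) at 24 h. Between arms, fatty acid higher at 12 h were 2 (5), sterol lower at 24 h 2 (7), fatty acid lower at 24 h 0 (1), and sterol lower at 48 h 1 (6).

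With a minimum of 50 CPM, brequinar gave sterol lower 0 (1) and fatty acid lower 0 (2) at 6 h, sterol higher 5 (10) at 12 h, and fatty acid lower 0 (1) at 24 h and 0 (2) at 48 h. Withdrawal gave sterol lower 1 (2) and fatty acid lower 0 (2) at 6 h, sterol lower 2 (4) and fatty acid lower 1 (3) at 12 h, sterol higher 6 (10) at 24 h, and fatty acid lower 0 (3) at 48 h, where the fatty acid median was 0.14 (-0.90). Between arms, sterol higher were 7 (12) and fatty acid higher 3 (5) at 12 h, and fatty acid higher 0 (2) at 48 h, with a median of -0.0256 (0.51). With a minimum of 5 CPM that median was also -0.0256, sterol higher at 24 h of brequinar were 2 (1), sterol lower at 6 h of withdrawal 4 (2), fatty acid higher at 24 h of withdrawal 2 (1), and sterol higher between arms at 6 h 1 (0).

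In G1-like cells, few at 0 h, brequinar gave sterol lower 7 (1) at 6 h, sterol higher 2 (10) with a median of -0.40 (0.59) and fatty acid higher 1 (2) at 12 h, sterol higher 0 (1) and fatty acid lower 3 (1) at 24 h, and sterol higher 1 (4) and fatty acid lower 5 (2) at 48 h. Sterol lower, outside the counts in 1 direction, were 4 (0) at 12 h, 9 (0) at 24 h and 9 (1) at 48 h of brequinar. The sterol medians at 24 and 48 h were -0.89 (0.15) and -0.80 (0.07). Withdrawal gave sterol lower 5 (2) at 6 h and 2 (4) at 12 h. Between arms, sterol higher were 2 (0) and fatty acid higher 1 (0) at 6 h, sterol higher 5 (12) and fatty acid higher 3 (5) at 12 h, sterol lower 12 (7) and fatty acid lower 0 (1) at 24 h, and sterol lower 10 (6) and fatty acid higher 0 (2) at 48 h, with a fatty acid median of -0.27 (0.51). In S class cells, brequinar gave sterol lower 2 (1) at 6 h, fatty acid lower 0 (1) at 24 h, and sterol higher 2 (4) and fatty acid lower 1 (2) at 48 h. Withdrawal gave sterol lower 1 (2) and fatty acid lower 0 (2) at 6 h and fatty acid lower 1 (3) at 12 h, and between arms fatty acid lower were 0 (1) at 24 h and fatty acid higher 1 (2) at 48 h. In G2/M class cells, fatty acid lower at 6 h of brequinar were 1 (2), sterol higher at 24 h 2 (1), sterol lower at 6 h of withdrawal 1 (2), and fatty acid higher between arms at 6 h 1 (0).

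Against the 0 h culture of the other arm, fatty acid lower at 6 h of brequinar were 1 (2), fatty acid higher at 12 h 4 (2), sterol higher at 24 h 2 (1), fatty acid lower at 48 h 1 (2), and sterol lower at 6 h of withdrawal 5 (2). Against both 0 h cultures summed, fatty acid lower at 6 and 48 h of brequinar were 1 (2) each. Centred on the median ratio, fatty acid higher at 12 h of brequinar were 1 (2) and sterol lower between arms at 48 h 10 (6). With cells weighted equally, sterol higher at 24 h of brequinar were 3 (1), fatty acid lower 2 (1), fatty acid lower at 6 h of withdrawal 1 (2), and fatty acid higher between arms at 48 h 1 (2). Without cells at 10% or more mitochondrial UMIs, and likewise without cells under 2500 UMIs, sterol lower at 6 h of withdrawal were 1 (2) and fatty acid lower between arms at 24 h 0 (1).

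No paired analysis was possible because each condition was 1 culture. Levels of fewer than 3 counts, at most 0.573 CPM, could not be told from 0.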
